A study of Homo sapiens with 6 samples.

Results

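The replication-dependent histone genes were examined in 786-O, a clear cell renal carcinoma line without functional VHL, in 3 RNA-seq and 3 Ribo-seq libraries (Ribo-seq sequences the stretches of mRNA that a ribosome shields from RNase). Members were all rows of the deposited table whose symbol starts with H2AC, H2BC, H3C or H4C followed by a number, or is H1-1 to H1-5. This gave 68 genes of 19669 named genes, with 17 for H2A, 18 for H2B, 13 for H3, 15 for H4 and 5 for the linker histone H1. All 68 were found in the reference symbol tables.

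There was 1 library per label and assay. MT is described as overexpression of PHYHD1 and, in the series title, as a PHYHD1 form that lacks an internal segment. WT is PHYHD1-WT in the title and in the column names but untreated cells in the design text. EV carries the empty vector. PHYHD1 is a member of the iron- and 2-oxoglutarate-dependent dioxygenase family. Cells of every label were treated with cycloheximide before lysis for Ribo-seq. In Ribo-seq PHYHD1 stood at 905 TPM in MT, 222 TPM in WT and 0 in EV. In RNA-seq it stood at 110 FPKM in MT, 118 FPKM in WT and 0.092 FPKM in EV, so MT was the higher of MT and WT in Ribo-seq only. The values in WT go against its description as untreated cells. All 12 renal carcinoma markers examined (among them PAX8, VIM and KRT18) were at 1 FPKM or more in every RNA-seq library, and 11 markers of blood, endothelial, liver, muscle, lung and islet cells reached at most 0.178 FPKM and 0.256 TPM, with 5 of them (CD3E, PECAM1, CDH5, SFTPC and INS) at 0 in every library. With 1 library each, every difference below is between libraries, has no replicate check and no p-value, and is called higher or lower by size alone. The size required was an absolute log2 difference of 1 or more after adding 1 to each value, among genes at 1 unit or more in at least 1 of the libraries compared.

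Replication-dependent histones package newly copied DNA, and their synthesis is coupled to S phase. Their genes lie in clusters and exist in many near-identical copies, and their mRNAs end in a conserved stem-loop instead of a poly(A) tail. The stem-loop binding protein SLBP holds this end through processing, translation and decay. H2A, H2B, H3 and H4 form the nucleosome core, and H1 binds the linker DNA. The genes encoding H4 make the same protein with few exceptions, whereas H3C1 to H3C12 encode H3.1 and H3C13 to H3C15 encode H3.2.

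The promoters of 6 members are shown because they set the genes that passed the size rule beside the most abundant gene of the same class. H2BC3, H3C3 and H4C13 were the members past the rule in Ribo-seq, and H2BC4, H3C2 and H4C14 had the highest mean Ribo-seq values of the H2B, H3 and H4 classes. Each run is the 250 bases before the RefSeq start on GRCh38.p14, in the direction of transcription. Capitals mark the TATA box (TATAAA), the CCAAT box (CCAAT) and the octamer (ATTTGCAT), on either strand. The octamer is the binding motif of the POU factors and is known from H2B promoters.
H2BC3, chr6:26043714-26043963, minus strand: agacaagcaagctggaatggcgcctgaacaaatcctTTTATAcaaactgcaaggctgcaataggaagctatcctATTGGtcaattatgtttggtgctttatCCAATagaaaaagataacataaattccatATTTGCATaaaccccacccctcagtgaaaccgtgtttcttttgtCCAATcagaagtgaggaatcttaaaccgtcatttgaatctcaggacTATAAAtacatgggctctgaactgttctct
H2BC4, chr6:26123927-26124176, minus strand: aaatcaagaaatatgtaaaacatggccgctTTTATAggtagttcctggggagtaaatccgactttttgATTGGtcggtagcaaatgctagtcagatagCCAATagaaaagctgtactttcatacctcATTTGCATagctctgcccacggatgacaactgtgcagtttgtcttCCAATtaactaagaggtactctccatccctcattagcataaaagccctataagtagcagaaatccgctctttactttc
H3C3, chr6:26045134-26045383, plus strand: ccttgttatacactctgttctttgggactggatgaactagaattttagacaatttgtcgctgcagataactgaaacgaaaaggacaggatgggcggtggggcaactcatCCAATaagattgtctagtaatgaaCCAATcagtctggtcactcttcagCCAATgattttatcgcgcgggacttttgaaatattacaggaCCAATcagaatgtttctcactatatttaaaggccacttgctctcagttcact
H3C2, chr6:26032100-26032349, minus strand: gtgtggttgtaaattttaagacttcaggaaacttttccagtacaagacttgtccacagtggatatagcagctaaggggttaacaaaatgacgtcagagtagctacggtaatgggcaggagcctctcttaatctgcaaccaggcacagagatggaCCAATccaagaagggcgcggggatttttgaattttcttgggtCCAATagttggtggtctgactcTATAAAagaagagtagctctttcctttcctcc
H4C13, chr6:27873535-27873784, minus strand: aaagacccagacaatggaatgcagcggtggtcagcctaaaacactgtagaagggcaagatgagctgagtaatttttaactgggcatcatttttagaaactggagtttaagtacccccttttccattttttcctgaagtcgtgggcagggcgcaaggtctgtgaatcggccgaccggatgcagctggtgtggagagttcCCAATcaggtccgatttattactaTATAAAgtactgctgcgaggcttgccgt
H4C14, chr1:149832407-149832656, plus strand: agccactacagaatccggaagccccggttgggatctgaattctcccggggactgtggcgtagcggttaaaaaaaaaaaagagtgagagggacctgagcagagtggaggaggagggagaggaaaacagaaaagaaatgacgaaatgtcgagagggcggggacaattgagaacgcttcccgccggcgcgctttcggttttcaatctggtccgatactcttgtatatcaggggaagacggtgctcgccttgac

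H2BC3 and H2BC4 shared a common layout, with 3 CCAAT boxes and 1 octamer each. H2BC3 held 2 TATA boxes, with 1 of them 30 bases before the start, whereas the single match in H2BC4 lay 220 bases before it. H3C3 held 4 CCAAT boxes and no exact TATAAA, and H3C2 held 2 CCAAT boxes and a TATA box 32 bases before the start. H4C13 had a TATA box and 1 CCAAT box, and H4C14 had none of the 3 motifs. H2BC4 has several RefSeq starts and the first listed was used.

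A promoter was found for 63 members. The CCAAT box occurred in all 16 H2A, all 18 H2B, all 11 H3 and all 5 H1 promoters with a sequence, but in 3 of 13 for H4, against 32.0% of all 35116 promoters in the reference. The octamer was found in 14 of 18 H2B and 11 of 16 H2A promoters, in 1 H3 promoter (H3C4) and in none of H4 or H1, against 1.63% of all promoters. Of the 34 H2A and H2B windows, 22 overlapped the window of another member, since H2A and H2B genes often lie head to head, so these counts are not independent. On either strand, TATAAA was found in 42 of 63 members (66.7%) and in 10.7% of all promoters. Matches on the strand of the gene were not counted apart.

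Of the 26 members with the octamer 19 were at 100 TPM or more in all 3 Ribo-seq libraries, and of the 37 without it 27 were. Of the 42 with TATAAA 31 were, and of the 21 without it 15. Of the 53 with a CCAAT box 37 were, and of the 10 without one, all of them H4 genes, 9 were. Within H4 the members with and without a CCAAT box differed in level. The 3 with one were H4C6, H4C9 and H4C13, none of which reached 100 TPM, and 9 of the 10 without one did. The exception was H4C7, listed at 0, and the contrast rests on the 3 genes with the box. The 5 members without a promoter sequence (H2AC12, H3C11, H3C12, H4C1 and H4C3) are missing from these counts. All of them were at 100 TPM or more in all 3 Ribo-seq libraries. No test was made of these counts.

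In Ribo-seq the members were among the most abundant genes of the table. They held 7.08% of all TPM in MT, 7.54% in WT and 7.83% in EV, with medians of 821, 808 and 895 TPM, set against a median over all genes of 1.66 TPM in MT, 1.63 TPM in WT and 1.65 TPM in EV. Among the 100 genes with the highest values there were 15 members in MT, 17 in WT and 16 in EV. In all, 51 members were at 100 TPM or more in every Ribo-seq library, and 8 were under 1 TPM in every one. Of all genes 7.56% in MT, 7.53% in WT and 7.50% in EV were at 100 TPM or more. TPM is scaled to length, so levels can be set beside each other between genes, although copies that share reads limit what a single gene's value means.

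**Figure D1:**
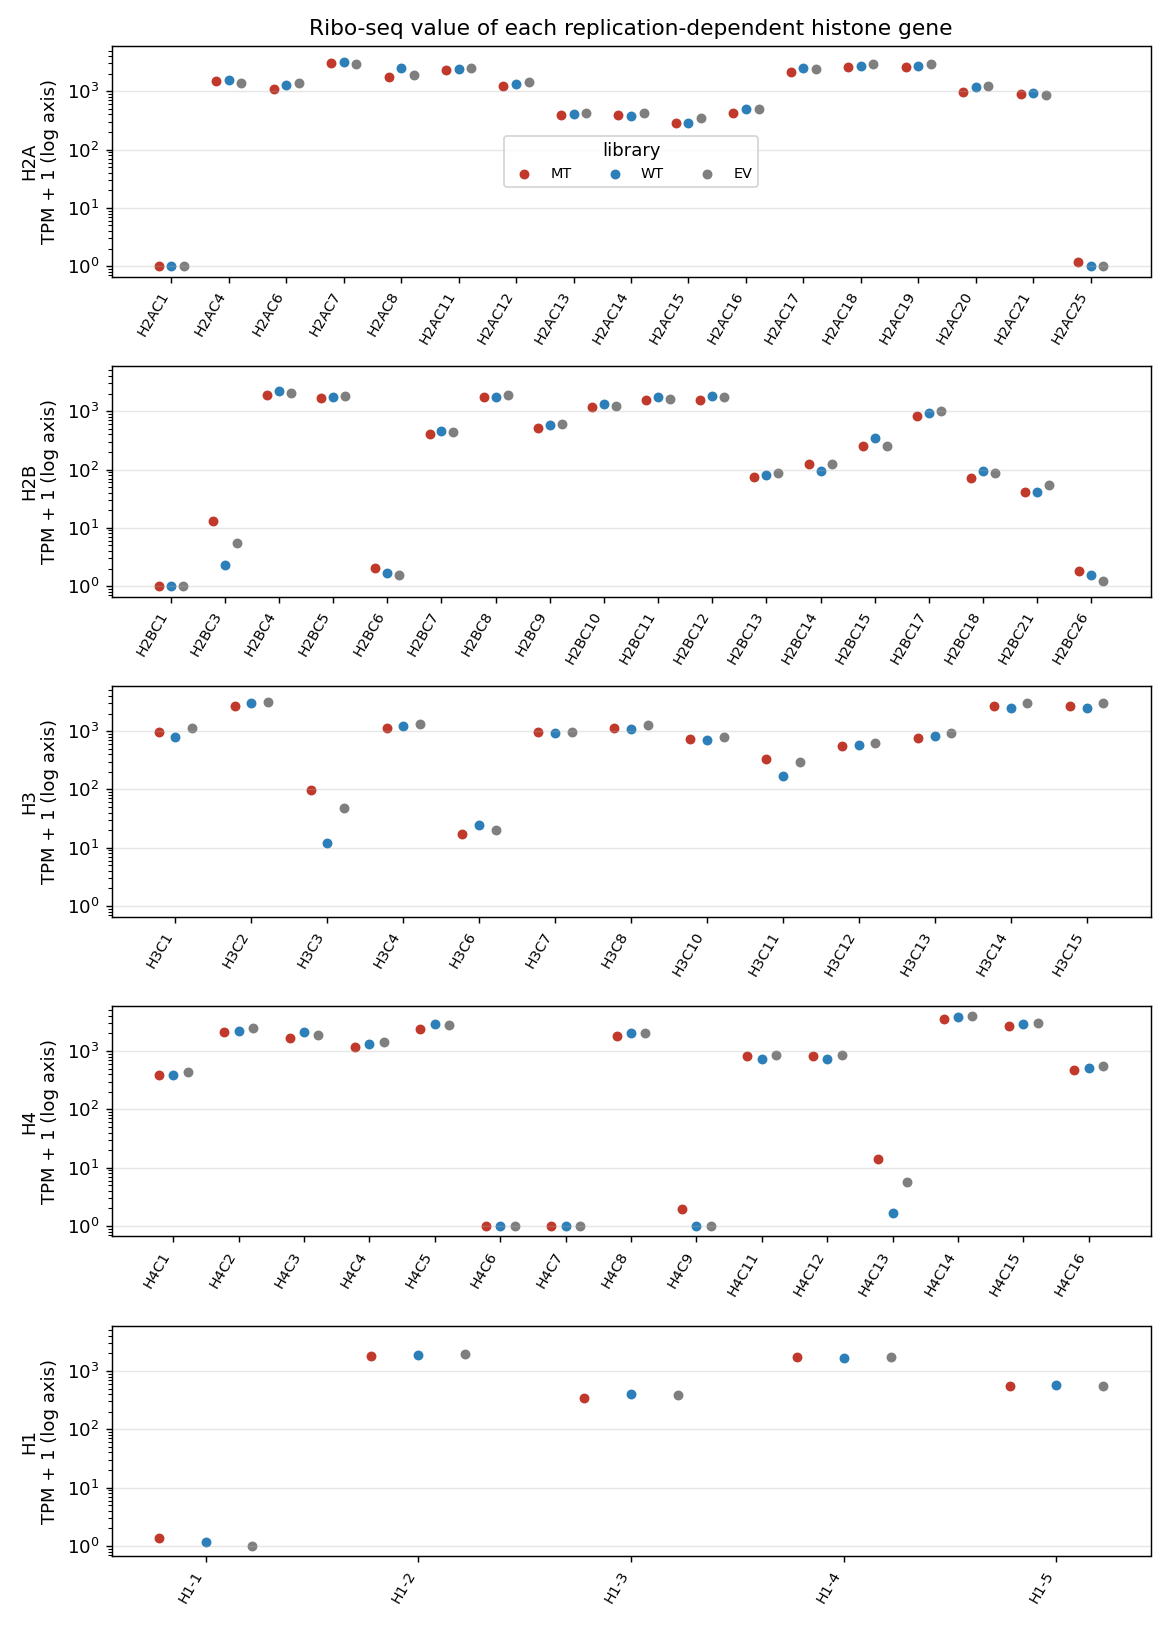
Ribo-seq value of each of the 68 members, as TPM + 1 on a log axis, in the MT (red), WT (blue) and EV (grey) libraries, with 1 point per library and 1 panel per class. Most members lie between 100 TPM and 3960 TPM with their 3 points close together, while H2BC3, H3C3 and H4C13 spread widely.

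Among H2A genes H2AC7 had the highest mean, at 3083 TPM in MT, 3208 TPM in WT and 2973 TPM in EV. H2AC18 and H2AC19, each at 2626 TPM in MT, 2693 TPM in WT and 2981 TPM in EV, were lower than H2AC7 in MT and WT and slightly higher in EV. At the other end H2AC1, which encodes a testis-specific H2A, was listed at 0 in all 3, and H2AC25 was at 0.197 TPM in MT and 0 in the other two. The remaining 15 H2A genes stood between 282 and 3208 TPM.

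H2B had the largest share of members under 100 TPM. H2BC4 stood at 1929 TPM in MT, 2205 TPM in WT and 2078 TPM in EV, H2BC8 at 1742, 1752 and 1862 TPM, and H2BC5 at 1687, 1719 and 1812 TPM in the same order of labels. Of 18 H2B genes 10 reached 100 TPM in all 3 libraries. H2BC1, the testis-specific H2B, was listed at 0 throughout. H2BC6 was at 1.04 TPM in MT, 0.712 TPM in WT and 0.55 TPM in EV, and H2BC26 at 0.785, 0.53 and 0.207 TPM in the same order.

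H3 transcripts were led by H3C2, at 2729 TPM in MT, 3062 TPM in WT and 3142 TPM in EV, and by H3C14 and H3C15, each at 2697 TPM in MT, 2470 TPM in WT and 3044 TPM in EV. Summed, the 10 H3.1 genes held 8674 TPM in MT, 8551 TPM in WT and 9640 TPM in EV, and the 3 H3.2 genes held 6153, 5760 and 7010 TPM in the same order. No H3 gene was listed at 0. H3C6 was low for its class, at 16.3 TPM in MT, 23.5 TPM in WT and 19.3 TPM in EV.

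H4 held the member with the highest value in every library, H4C14, at 3538 TPM in MT, 3843 TPM in WT and 3960 TPM in EV. Its rank among all genes was 21 in MT, 21 in WT and 18 in EV. H4C15 (2654, 2883 and 2970 TPM in MT, WT and EV) and H4C5 (2343 TPM in MT, 2857 TPM in WT and 2826 TPM in EV) came next. H4C6 and H4C7 were listed at 0 in every library, and H4C9 was at 0.962 TPM in MT and 0 in WT and EV.

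Of the linker histone genes, H1-2 (1782 TPM in MT, 1843 TPM in WT and 1919 TPM in EV) and H1-4 (1742, 1661 and 1744 TPM in MT, WT and EV) were the highest. H1-5 stood at 551, 580 and 548 TPM and H1-3 at 344, 409 and 379 TPM in the same order. H1-1 was near 0, at 0.354 TPM in MT, 0.16 TPM in WT and 0 in EV. H1-2 alone made up 40.3% of the H1 sum in MT, 41.0% in WT and 41.8% in EV.

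Several pairs of copies had values that were tied together. H2AC18 and H2AC19, H3C14 and H3C15, and H4C11 and H4C12 had identical Ribo-seq values in all 3 libraries. H4C14 stood at 1.33 times H4C15 in each of them, to within 1e-05. These were the 4 fixed ratios among 1653 pairs of members at 1 TPM or more, and the next closest pair varied by 0.00434. Of 9995 genes at 1 TPM or more in every Ribo-seq library 17 shared all 3 values with another gene, and 6 of those 17 were histone genes. In RNA-seq the same copies were not tied. H2AC18 had 3.28 FPKM in MT, 1.21 FPKM in WT and 1.15 FPKM in EV, and H2AC19 was listed at 0 in all 3, so the same copies were tied in one assay and not in the other. For such copies the Ribo-seq value may describe the pair and not the single gene.

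The members are listed on 3 chromosomes in RefSeq. Chromosome 6 holds 54 of them and 71.7% of their summed TPM in MT, 72.7% in WT and 71.0% in EV. Chromosome 1 holds 13, with 27.7%, 26.6% and 28.3% in the same order, and chromosome 12 holds H4C16 alone, at 476 TPM in MT, 506 TPM in WT and 558 TPM in EV.

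**Figure D2:**
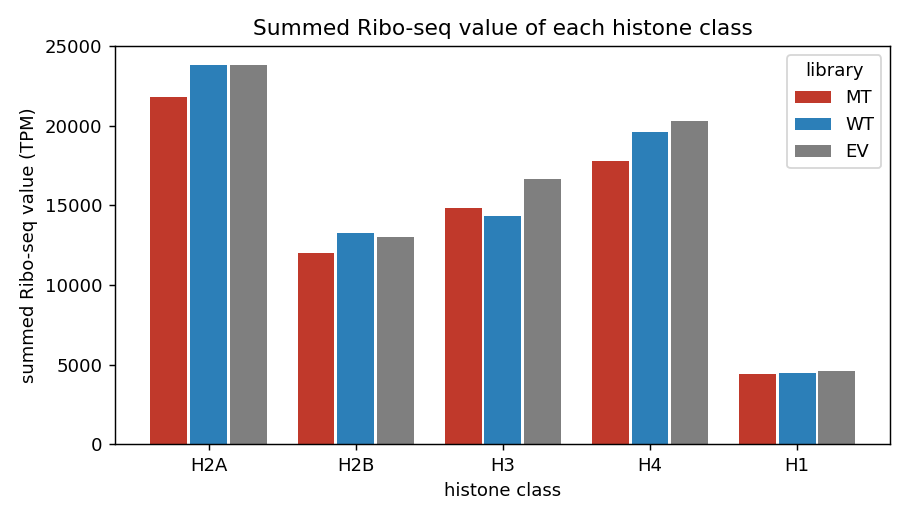
Summed Ribo-seq value of each histone class in TPM, with 1 bar per library (MT red, WT blue, EV grey) and no error bars, since each label had 1 library. The H2A, H2B and H4 bars are lowest in MT, and the H3 bar is lowest in WT.

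Summed over each class, Ribo-seq values were a little lower in MT than in EV. H2A summed to 21792 TPM in MT, 23801 TPM in WT and 23813 TPM in EV, and H4 to 17800, 19603 and 20316 TPM in the same order. H2B summed to 11974 TPM in MT, 13230 TPM in WT and 12978 TPM in EV. H3 was the class in which WT was lowest, with 14827 TPM in MT, 14311 TPM in WT and 16649 TPM in EV. H1 varied least, with 4419 TPM in MT, 4494 TPM in WT and 4590 TPM in EV. The ratio of MT to EV was 0.876 for H4, 0.891 for H3, 0.915 for H2A, 0.923 for H2B and 0.963 for H1, and that of WT to EV lay between 0.860 for H3 and 1.02 for H2B. TPM values have the same total in every library, so a class sum is a share of the library and not an amount per cell. With 1 library per label, a difference between cultures cannot be told apart from one between libraries. Whether fewer cells in S phase or less histone footprint RNA lies behind a lower share was not tested.

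The class sums were unequal. H2B summed to 0.549 times H2A in MT, 0.556 times in WT and 0.545 times in EV, and H3 to 0.833, 0.730 and 0.820 times H4 in the same order. How far the counting of shared reads sets these ratios was not tested.

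In Ribo-seq MT over EV, 3 of 60 members measured were higher and 0 lower. Of all 10737 genes 2.83% passed the rule in either direction, with 1.7% higher and 1.14% lower. The median log2 ratio of the members was -0.16, with 49 of 60 below 0, beside a median of 0.01 and 47.9% below 0 over all genes. Among members at 100 TPM or more in both libraries 45 of 52 were below 0, with a median of -0.16 and a range from -0.32 to 0.16, beside a median of -0.01 and 52.3% below 0 over the 1426 genes at that level. By class 12 of 15 H2A, 12 of 16 H2B, 11 of 13 H3, 11 of 12 H4 and 3 of 4 H1 genes were below 0.

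In Ribo-seq WT over EV, 0 of 59 members were higher and 3 were lower, beside 3.36% of 10700 genes past the rule in either direction, 1.74% higher and 1.62% lower. The members' median was -0.08, with 41 below 0, and that of all genes was 0.03, with 46.6% below 0. The H3 genes were 12 of 13 below 0 with a median of -0.19. H2B had 8 of 15 below 0 and a median of -0.04, and H1 had 2 of 4 below 0.

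In Ribo-seq MT over WT, 3 of 60 members were higher and 0 lower, beside 3.19% of 10752 genes past the rule in either direction, 1.74% higher and 1.45% lower. The median was -0.07, with 41 below 0, and -0.01 over all genes, with 51.6% below 0. H2A was below 0 in 13 of 15 genes and H3 in 5 of 13. The 3 comparisons are made among the same 3 libraries and are not independent of each other. The shares of members past the rule, 5.0% to 5.1%, are each 3 genes.

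**Figure D3:**
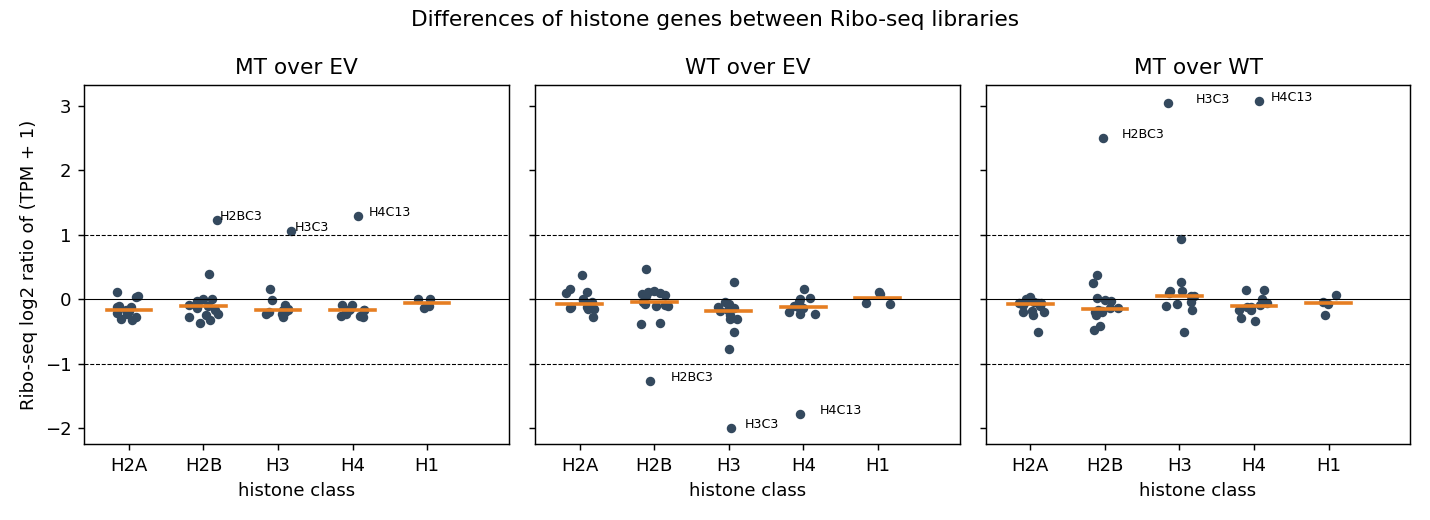
Ribo-seq log2 ratio of (TPM + 1) for each member measured, by class, in MT over EV, WT over EV and MT over WT. Orange lines are class medians and dashed lines the size rule of 1 in either direction. The labelled points H2BC3, H3C3 and H4C13 are the members past the rule, and most others lie within 0.5 of 0.

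The members past the rule were H3C3, H2BC3 and H4C13, and their order was MT, EV, WT from high to low. H3C3 (ENSG00000287080.2), which encodes H3.1, stood at 97.7 TPM in MT, 10.9 TPM in WT and 46.5 TPM in EV. Its log2 ratio was 1.05 in MT over EV, -2.00 in WT over EV and 3.05 in MT over WT. It was the only one of the 3 with a value above 20 TPM.

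H2BC3 (ENSG00000276410.4), which encodes an H2B, stood at 12.1 TPM in MT, 1.31 TPM in WT and 4.59 TPM in EV. Its log2 ratios were 1.23 in MT over EV, -1.27 in WT over EV and 2.50 in MT over WT. H4C13 (ENSG00000275126.2) stood at 13.1 TPM in MT, 0.673 TPM in WT and 4.76 TPM in EV, with log2 ratios of 1.29, -1.78 and 3.07 in the same order of comparisons. The values of both are low, and the number of reads behind them is unknown. For H3C3 as for these 2 genes, how far reads shared with near-identical, more abundant copies set the values was not tested. With a pseudocount of 10 none of the 3 passed in MT over EV.

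RNA-seq gave no second reading of these genes, as H2BC3, H3C3 and H4C13 were listed at 0 in all 3 RNA-seq libraries. Their part in the class sums was small. The H3.1 genes together stood at 8674 TPM in MT, 8551 TPM in WT and 9640 TPM in EV, so they were highest in EV, unlike H3C3.

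H2BC3 and H3C3 lie next to each other on chromosome 6 in RefSeq, with 0 protein-coding genes between them. H4C13 lies elsewhere in the same cluster, next to H3C11. H3C11 (ENSG00000275379.2) fell just short of the rule in MT over WT (log2 of 0.94) and had the same order of libraries, at 329 TPM in MT, 171 TPM in WT and 294 TPM in EV. The genes on the other sides did not follow that order. H2AC4, beside H2BC3, stood at 1520 TPM in MT, 1578 TPM in WT and 1409 TPM in EV. H1-2, beside H3C3, was highest in EV, as was H3C12, beside H4C13, at 554 TPM in MT, 569 TPM in WT and 618 TPM in EV.

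**Figure D4:**
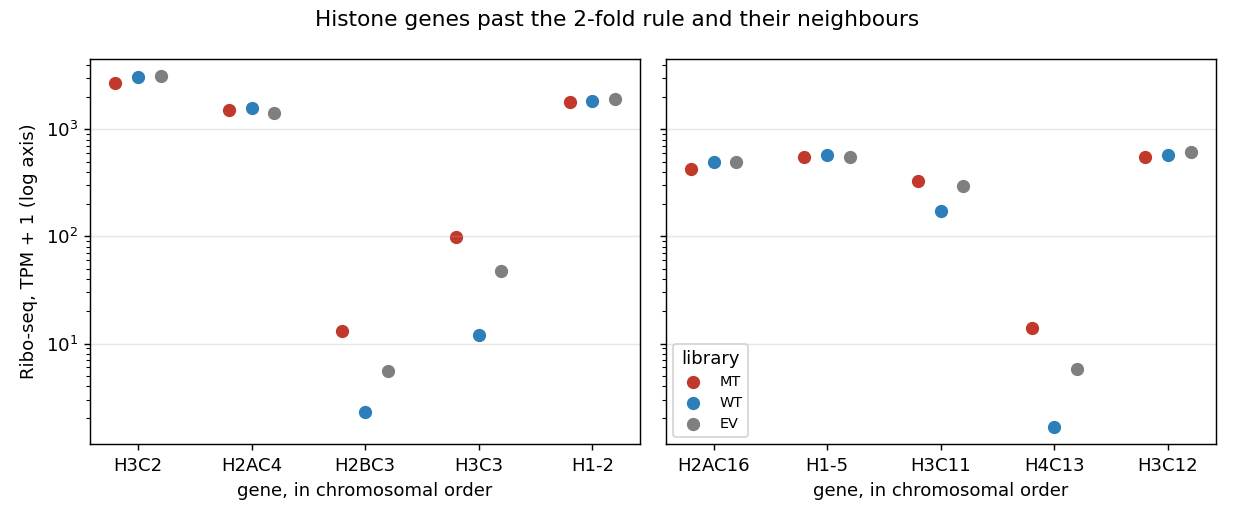
Ribo-seq value as TPM + 1 on a log axis in the MT (red), WT (blue) and EV (grey) libraries for 2 stretches of neighbouring histone genes on chromosome 6, in chromosomal order. H2BC3 and H3C3 on the left and H4C13 on the right are high in MT and low in WT. H3C11 is low in WT, with MT and EV close together (329 and 294 TPM). The other genes shown do not have the order MT, EV, WT from high to low.

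Members between 0 and 20 TPM shared a direction. There were 7 low members (H2AC25, H2BC3, H2BC6, H2BC26, H4C9, H4C13 and H1-1), and all 7 were highest in MT. H3C6, outside this group only through its WT value, was lowest in MT, at 16.3 TPM in MT, 23.5 TPM in WT and 19.3 TPM in EV. The share of all genes between 0 and 20 TPM that were highest in MT was not computed. Of these, H2AC25, H2BC26, H4C9 and H1-1 stayed under 1 TPM in every library. Of the 51 members at 100 TPM or more in every library 33 were lowest in MT and 1, H3C11, was highest there. The share of all genes at 100 TPM or more that were lowest or highest in MT was not computed either. Neither count can therefore be read as particular to histone genes. The reads behind the low values are unknown, and this grouping was made after the values were seen.

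The abundant members varied little. For the 51 at 100 TPM or more the highest of the 3 values was a median of 1.15 times the lowest, and the largest such ratio was 1.92, for H3C11. H2AC8 stood at 1770 TPM in MT, 2513 TPM in WT and 1928 TPM in EV, and H2BC15 at 252, 350 and 252 TPM in the same order, which makes WT the high library in both. H3C1 stood at 962 TPM in MT, 795 TPM in WT and 1133 TPM in EV.

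In RNA-seq the members were almost absent. Their sum was 30.5 FPKM in MT, 22.2 FPKM in WT and 26.9 FPKM in EV, which is 0.00660%, 0.00483% and 0.00572% of the libraries. None reached 10 FPKM, and 19 were listed at 0 in all 3 libraries. Only 9 members were at 1 FPKM or more in any RNA-seq library, and 4 of them (H2AC6, H2AC18, H2BC12 and H1-2) in all 3. By library 8 members in MT, 6 in WT and 6 in EV were at that level. Of the 19669 named genes 10854, 10848 and 10897 were, in the same order. The RNA selection behind RNA-seq was not given in the sources used here.

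H1-2 had the highest mean among these, at 4.60 FPKM in MT, 3.87 FPKM in WT and 4.19 FPKM in EV, followed by H2AC6 at 3.35, 3.39 and 5.14 FPKM and H2BC12 at 2.61, 3.38 and 4.13 FPKM in the same order. H2BC5 had 2.02 FPKM in MT, 2.02 FPKM in WT and 0.975 FPKM in EV, and H2BC4 had 1.42 FPKM in MT, 0.664 FPKM in WT and 1.31 FPKM in EV. H4C14 had 1.12 FPKM in MT, 0.985 FPKM in WT and 1.35 FPKM in EV. Several histone genes of this kind, H2BC5 and H2BC12 among them, are known to make some polyadenylated transcripts.

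The RNA-seq comparisons rest on few members. In MT over EV 0 of 8 members passed the rule, beside 0.29% of 11016 genes. In WT over EV 1 of 8 did, beside 0.499% of 11032 genes. That gene was H2AC11, at 0.656 FPKM in MT, 1.04 FPKM in WT and 0 in EV. In MT over WT 1 of 9 did, beside 0.508% of 11013 genes. It was H4C12, at 1.34 FPKM in MT, 0.166 FPKM in WT and 0.176 FPKM in EV, whose copy H4C11 was listed at 0 in all 3. H2AC18 lay just short of the rule in MT over EV (log2 of 0.99). At these levels the added 1 sets much of the ratio, and with a minimum of 10 FPKM no member was measured.

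**Figure D5:**
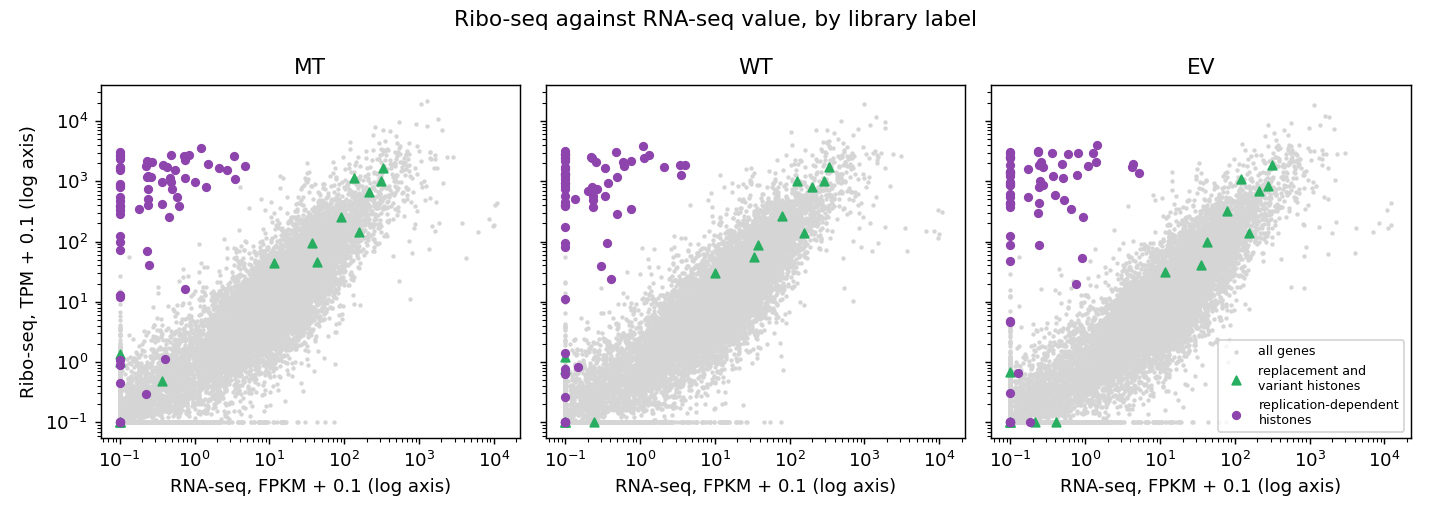
Ribo-seq value (TPM + 0.1) against RNA-seq value (FPKM + 0.1), both on log axes, in MT, WT and EV, for all genes (grey), the 68 replication-dependent histone genes (purple) and 15 replacement and variant histones (green). Most purple points lie at the upper left, with high Ribo-seq and low RNA-seq values. The 8 members under 1 TPM in every Ribo-seq library lie at the lower left. The green points lie within the cloud of all genes.

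Set against each other, the assays differed by orders of magnitude for the members. With RNA-seq rescaled to the same total as Ribo-seq, 59 of 60 members in MT, 58 of 58 in WT and 59 of 59 in EV had a Ribo-seq value at least 2-fold above RNA-seq, beside 8.28%, 7.54% and 7.53% of all genes. The median log2 ratio of the members was 8.89 in MT, 9.41 in WT and 9.29 in EV, and that of all genes -0.93, -0.93 and -0.94 in the same order. The exception was H2BC6 in MT, at a log2 ratio of 0.31. For most members this ratio is set by an RNA-seq value near 0, so it is not a translation rate, and no translational efficiency was computed between labels.

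The replacement and variant histones listed (15 in the table) showed a smaller gap. Their Ribo-seq value was at least 2-fold above RNA-seq for 3 of 10 measured in MT. It was so for 3 of 10 in WT and 2 of 9 in EV, beside 8.28%, 7.54% and 7.53% of all genes in MT, WT and EV. Their medians were 0.54, 0.65 and 0.52 (log2), above those of all genes at -0.93, -0.93 and -0.94 in the same order. Whether a poly(A) tail accounts for the smaller gap was not tested. H3-3A and H3-3B, which encode the replacement histone H3.3, summed to 1670 TPM in MT, 1810 TPM in WT and 1547 TPM in EV in Ribo-seq, and to 528, 488 and 490 FPKM in RNA-seq in the same order. The replication-dependent H3 genes held 8.88 times the H3.3 Ribo-seq value in MT, 7.91 times in WT and 10.8 times in EV. H2AZ1, the H2A.Z gene, stood at 1671 TPM in MT, 1737 TPM in WT and 1878 TPM in EV. Among these genes H3-5 alone, 1 of 10 measured, passed the rule in Ribo-seq, at 1.26 TPM in MT, 1.12 TPM in WT and 0 in EV. It did so in MT over EV and WT over EV, where 2.83% and 3.36% of all genes passed in either direction. These values lie just above the minimum of 1 TPM, and H3-5 was listed at 0 in every RNA-seq library.

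Of 24 listed factors of histone mRNA transcription and processing 0 passed the rule in any Ribo-seq comparison, beside 2.83% to 3.36% of all genes, with medians of 0.01 in MT over EV, 0.08 in WT over EV and -0.02 in MT over WT. SLBP stood at 149 TPM in MT, 155 TPM in WT and 176 TPM in EV in Ribo-seq, and at 73.1 FPKM in MT, 87.2 FPKM in WT and 76.7 FPKM in EV in RNA-seq. The U7 and spliceosomal ring genes SNRPG (2085, 2227 and 1874 TPM in MT, WT and EV) and SNRPF (545, 631 and 541 TPM in the same order) were the most abundant of the list. The gene of the list nearest to the rule was CRAMP1, at 3.30 TPM in MT, 1.30 TPM in WT and 1.21 TPM in EV (log2 of 0.96 in MT over EV). POU2F1, whose product binds the octamer, was the next, in the other direction, at 5.67 TPM in MT, 5.66 TPM in WT and 11.4 TPM in EV (log2 of -0.90 in MT over EV). In RNA-seq SNRPD3, another ring subunit, was lower than EV in both, at 20.3 FPKM in MT, 21.6 FPKM in WT and 50.1 FPKM in EV, while its Ribo-seq values were 203, 205 and 200 TPM in the same order.

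Of 15 decay factors ERI1, the exonuclease that trims the histone stem-loop, was the one past the rule, in MT over WT, where 3.19% of all genes passed it. It stood at 53.4 TPM in MT, 118 TPM in WT and 62.5 TPM in EV in Ribo-seq, with 16.02, 15.91 and 15.10 FPKM in RNA-seq in the same order. Decay factors had a median log2 ratio of -0.10 in MT over EV and 0.15 in WT over EV. ATR, a checkpoint kinase, stood at 19.7 TPM in MT, 11.4 TPM in WT and 11.6 TPM in EV.

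Histone chaperones and importins had 0 of 25 genes past the rule in any comparison of either assay, beside 0.29% to 3.36% of all genes, with Ribo-seq medians of -0.05 in MT over EV, 0.12 in WT over EV and -0.11 in MT over WT. NAP1L1, a chaperone of H2A and H2B, was the most abundant, at 644 TPM in MT, 636 TPM in WT and 664 TPM in EV, followed by the importin KPNB1 (361, 386 and 319 TPM in MT, WT and EV). RBBP4, a subunit of the chromatin assembly factor, stood at 216 TPM in MT, 264 TPM in WT and 258 TPM in EV.

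S phase and DNA replication genes had 0 of 40 past the rule in each Ribo-seq comparison, beside 2.83% to 3.36% of all genes, with medians of -0.02 in MT over EV, 0.05 in WT over EV and -0.07 in MT over WT. In MT over EV 24 of 40 were below 0. PCNA, the sliding clamp, stood at 464 TPM in MT, 488 TPM in WT and 483 TPM in EV, RRM2 at 393, 438 and 410 TPM in the same order, and TYMS at 320 TPM in MT, 322 TPM in WT and 307 TPM in EV. In RNA-seq their medians were -0.09 in MT over EV, 0.11 in WT over EV and -0.19 in MT over WT, with 0 of 40 past the rule. In WT over EV 34 of 40 were above 0, where 51.1% of all genes were below 0, and in MT over WT 37 of 40 were below 0, beside 51.0% of all genes. Whether the share of cells in S phase differed between the cultures was not tested.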

How the data were processed

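The deposited table held 20307 rows and 1 column per library. Per the labels, RNA was extracted with TRIzol, footprints were made with RNase I after cycloheximide, and ribosomal RNA was removed with antisense probes. The build in the submitters' processing notes is hg 18 (aligner, annotation and counting not given in the sources used here). Deposited RNA-seq values carry no unit and were read as FPKM, since the columns sum to 459938 to 469859. The deposited Ribo-seq values are TPM, as each column sums to 1000000. Read depth is unknown, so no interval or count test was possible. The design had allowed for counts and the rule for other units was used.

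Rows without a gene name (605) and 7 symbols on several rows were left out. Values were compared as log2(value + 1), at a minimum of 1 unit in 1 library compared, with an absolute difference of 1 or more as the rule of size; the scale understates changes of low genes. Alternatives were pseudocounts of 0.1 and 10, and a minimum of 10 units or none. Others were scaling by the median ratio of genes at 100 units or more, and class sums without the top member. Copies at a fixed ratio counted once were added after seeing the data. Not every alternative was run on every result. The pseudocount of 10 and no minimum were used only for counts of members past the rule, the pseudocount of 10 in Ribo-seq alone. Summing copies by protein sequence was not run. The rule was tested on simulated data, with fold changes put into genes at 10 units or more in EV. Read depth was assumed there, and no variation between replicates was simulated. Changes of lower genes, such as H2BC3 and H4C13, were not simulated. A marker gene on the list is not reported here. Members, gene lists and tests were chosen with earlier results of these data known. Named are the top 3 members of each class, members past the rule or at 1 FPKM, listed genes past the rule or the most abundant, and some chosen after their values were seen (H3C1, H3C6, H3C11, H2AC8, H2BC15, neighbours, low members, POU2F1, CRAMP1, ATR, RBBP4, H3-3A, H3-3B and single markers). Promoters came from RefSeq (GRCh38.p14) by symbol. Python 3.11.15, numpy 2.4.6, pandas 2.3.3 and matplotlib 3.10.9 were used.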

Additional observations from a re-analysis of the deposited data

How the results depend on the processing

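Of 93 recomputed results 85 kept their direction and stayed within 1.5 times (counts) or 0.1 on the log2 scale (medians and class sums). With a pseudocount of 10 the Ribo-seq members past the rule were 0 in MT over EV, 1 in WT over EV and 2 in MT over WT; at a minimum of 10 units there was 1 in WT over EV. In RNA-seq a pseudocount of 0.1 gave 2 members in MT over EV and 2 in MT over WT, and a minimum of 10 units gave 0 in WT over EV and 0 in MT over WT. These follow from low values: fewer genes stay above a higher minimum. A larger pseudocount shrinks ratios of low genes, and a smaller one widens them. Counting copies at a fixed ratio once turned the H2A sum in WT over EV from -0.0007 to 0.019 (log2), both close to 0. Scaling moved the libraries by at most 0.02 (log2). No paired analysis was possible because there was 1 library per label and assay, and no replicate could be left out. The unit of RNA-seq, the read depth and the handling of shared reads limit every value under about 10 units. The handling of shared reads also limits higher values, among them those of the copies at a fixed ratio.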
